A study of Mus musculus with 8 samples.

Results

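Ubiquitin-specific proteases (USPs) are the genes described here, in gastrocnemius muscle of mice labelled as lacking the glucocorticoid receptor in their myofibres. The members are the rows of the deposited count table whose symbol starts with Usp and a digit, without pseudogenes, which gave 58 of 48709 genes. The rule reads names only, so it also takes Usp6nl, a Rab GTPase-activating protein named for its similarity to USP6, and the antisense transcripts Usp46os1 and Usp46os2. Messenger RNA was sequenced from 16-week-old C57BL/6 mice in 4 libraries labelled GR(i)skm-/- and 4 labelled Control. The knockout mice carried floxed glucocorticoid receptor alleles and HSA-Cre-ERT2, an inducible recombinase driven by the human skeletal actin promoter of muscle fibres. The control mice carried the floxed alleles, which both groups share. The labels do not give the inducing agent, the time of day or whether each library is a separate mouse, and p-values then reflect only how far these libraries spread. Libraries are called E to H (labelled knockout) and A to D (control) in the order of the table's columns.

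Ubiquitin marks proteins for the proteasome, for sorting in the endosome and for signalling, and USPs are the cysteine proteases that cut it off again. They form the largest family of deubiquitinases in mammals, and most members differ in the domains around a shared catalytic core. In wasting muscle, where ubiquitin ligases are induced by glucocorticoids, deubiquitinases such as Usp14 at the proteasome and Usp19 have been studied as the opposing or recycling arm.

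Libraries E to H held 37944368 to 52200305 counts and libraries A to D held 36680510 to 44987629. The targeted gene Nr3c1 was at the control level in 2 of the 4 libraries labelled knockout. It was at 87.1, 38.6, 96.7 and 42.8 CPM (the count relative to its library total, scaled by edgeR's TMM) in E to H, against 83.2, 89.6, 84.7 and 90.0 CPM in A to D (edgeR adjusted p = 0.452). The other 2 were lower. Every direction below is therefore that of libraries labelled knockout. Results without E and G are also given for the called members and for part of the other genes. The tissue was bulk muscle, so fewer cells of a type and less RNA per cell cannot be told apart. The 6 myofibre markers summed to 133318 to 156559 CPM in E to H, against 148007 to 188932 CPM in A to D. Of 43 tested markers of 11 cell types, 3 rose and 12 fell, where 4.04% of all genes tested rose and 4.41% fell. The macrophage markers Adgre1 and Cd163 rose. The 5 macrophage markers summed to 38.7 to 57.7 CPM in E to H against 25.2 to 40.9 CPM in A to D, with overlap. Endothelial markers summed to 281 to 306 CPM in E to H against 313 to 340 CPM in A to D, and Cdh5 and Tie1 fell. Tenocyte markers summed to 106 to 130 CPM in E to H against 141 to 246 CPM in A to D. For satellite cell markers the sums were 19.8 to 25.7 CPM in E to H against 26.6 to 30.8 CPM in A to D. No list summed higher in every library labelled knockout than in every control. No marker was at 0 in every library, and the part of these shifts in the USP results was not tested.

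Of the 58 members, 47 passed the filter on low counts and were tested. Another 8 had no count in any library: Usp9y, Usp26, Usp17lb, Usp17lc, Usp17ld, Usp17le, Usp46os1 and Usp46os2. In 1 library, 0 counts allows a level of up to 0.0575 to 0.0818 CPM of the library total, for counting error only. Usp50, Usp51 and Usp17la had a few counts and were not tested. The Usp17l genes are near-identical copies of one another, and how reads that match several copies were counted is not given in the sources used here.

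Muscle held a few USP transcripts at high level and many at low level. On the scale of CPM per kilobase of the longest transcript, which allows levels of different genes to be compared, the 8 highest members made up 60.9% of the summed level of the tested members, and the 2 highest made up 26.4%. Usp47, a multidomain protease known from DNA base excision repair, led with 85.8 CPM per kilobase in libraries labelled knockout and 74.0 in control. Usp13, a relative of isopeptidase T, followed with 56.8 CPM per kilobase in libraries labelled knockout and 59.5 in control. Usp19, which has a form anchored in the endoplasmic reticulum and is known to be raised in wasting rodent muscle, came next with 43.4 CPM per kilobase in libraries labelled knockout and 44.1 in control. Usp2, Usp4, Usp25, Usp5 and Usp7 completed the 8. The median over the 47 tested members was 4.38 CPM per kilobase.

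**Figure D1:**
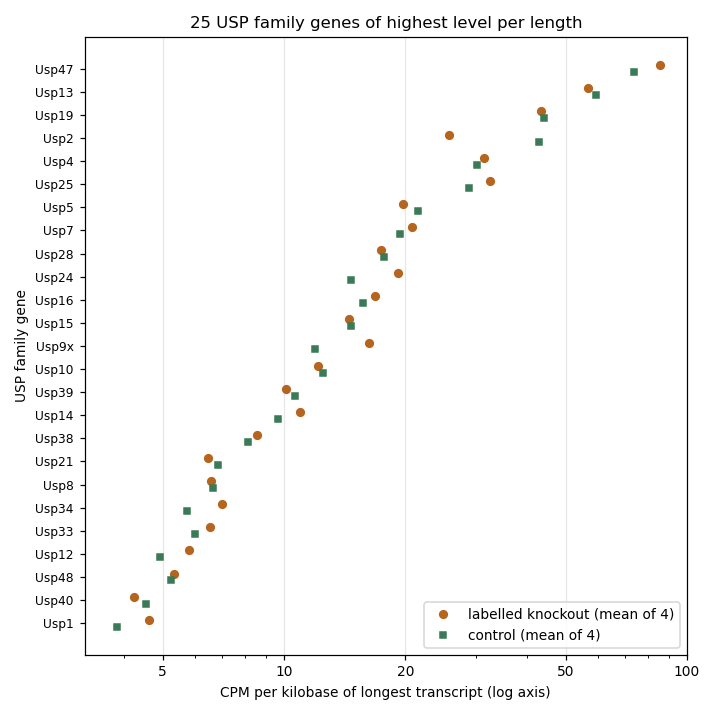
Level of the 25 USP genes that were highest per length, as CPM per kilobase of the longest transcript on a log axis, with circles for the mean of 4 libraries labelled knockout and squares for the mean of 4 control libraries. Usp47 and Usp13 lead in both groups, and Usp2 shows the widest gap, at 25.7 CPM per kilobase in libraries labelled knockout against 42.8 in control.

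Among the 47 tested members, 5 changed by edgeR's quasi-likelihood test at an adjusted p under 0.05. Usp24, Usp34 and Usp9x rose, and Usp2 and Usp54 fell. These are 10.6% of the tested members, against a background of 8.45% of all 14712 genes tested, so the share of USP genes called was near that of all genes. By direction, 3 of 47 rose, where the background was 4.04%, and 2 of 47 fell, where it was 4.41%. In 11 members the CPM ranges of the groups were apart, 8 higher and 3 lower in libraries labelled knockout, which is 23.4% against a background of 16.7% (7.68% higher and 9.02% lower). Changes were small: 33 of the 47 log2 fold changes lay within 0.25 of 0. The median log2 fold change of the tested members was 0.08, against -0.01 over all genes tested, and 29 of 47 were positive (61.7%), against 48.3% of all genes tested. Summed over all 58 members, the level was 2965 to 3028 CPM in E to H, against 2753 to 2967 CPM in A to D, so E lay just below control library D. Scaling by library size alone raised the share of higher calls over all genes to 69.8%, against 47.8% with TMM, and raised the count of USP genes called higher to 7.

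**Figure D2:**
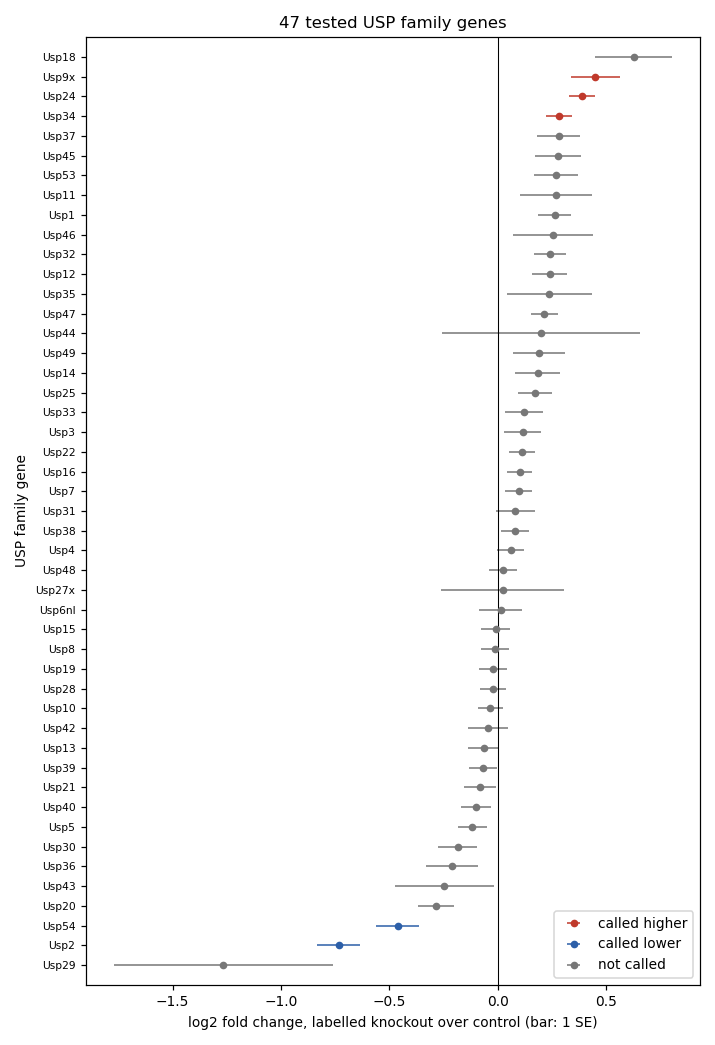
Log2 fold change of each of the 47 tested USP family genes, libraries labelled knockout over control, with 1 SE on either side. Red marks the 3 genes called higher, blue the 2 called lower, and grey the others, most of which lie within 0.25 of 0.

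Usp2 showed the largest change that passed the test. It encodes a protease whose transcript follows the circadian clock in many mouse tissues and which acts on Mdm2 and on clock proteins. Usp2 (ENSMUSG00000032010, chromosome 9, 44067021 to 44095627, mm10 plus strand) had a level of 96.6, 93.4, 94.1 and 114 CPM in libraries E to H, against 144, 155, 190 and 173 CPM in A to D. All 4 libraries labelled knockout lay below every control library, and E and G, whose Nr3c1 was at the control level, lay beside F. The means were 99.5 ± 9.67 CPM in libraries labelled knockout and 166 ± 20.3 CPM in control (SD, n = 4 each). The log2 fold change was -0.73 ± 0.10 (SE), or 1.66-fold lower, with an edgeR adjusted p = 0.00284. The call held under all 18 alternatives, with log2 fold changes between -0.81 and -0.64 and adjusted p-values of at most 0.0479. Without libraries E and G the fall was -0.68 on the log2 scale, with an edgeR adjusted p = 0.0479. Counts cover the whole gene, so the known long and short Usp2 transcripts cannot be separated. GENCODE places Gm49380 on the opposite strand along the whole 28607 bases of Usp2 and Gm39325 along 4448 of them, and whether reads were counted by strand is not given in the sources used here.

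Usp24 was the clearest of the members that rose. It encodes a large protease known to bind the DNA damage protein DDB2 in human cells. Usp24 (ENSMUSG00000028514, chromosome 4, 106316213 to 106441322, mm10 plus strand) had a level of 191, 205, 212 and 205 CPM in libraries E to H, against 151, 155, 154 and 162 CPM in A to D. The groups were far apart relative to their spread, and E was the lowest library labelled knockout. The means were 203 ± 8.98 CPM in libraries labelled knockout and 155 ± 4.41 CPM in control (SD, n = 4 each), which is 1.31-fold on a log2 change of 0.39 ± 0.06 (SE), with an edgeR adjusted p = 0.00525. Its call also held under all 18 alternatives, with log2 fold changes of 0.30 to 0.46 and adjusted p-values of at most 0.0479.

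The start regions of Usp2 and Usp24 are shown because theirs are the calls that held under every alternative. RefSeq gives a window of 250 bases before to 50 after a gene's start on GRCm38.p6, the assembly of mm10, for 35 of the 47 tested members. The Usp2 window (chr9:44084670-44084969, plus strand) lies inside the gene, 17.9 kb downstream of the GENCODE gene start, and the Usp24 window (chr4:106315963-106316262, plus strand) is at the GENCODE start. Capitals mark the GC-box GGGCGG on either strand and the core TGACG of the cAMP response element on either strand.
Usp2: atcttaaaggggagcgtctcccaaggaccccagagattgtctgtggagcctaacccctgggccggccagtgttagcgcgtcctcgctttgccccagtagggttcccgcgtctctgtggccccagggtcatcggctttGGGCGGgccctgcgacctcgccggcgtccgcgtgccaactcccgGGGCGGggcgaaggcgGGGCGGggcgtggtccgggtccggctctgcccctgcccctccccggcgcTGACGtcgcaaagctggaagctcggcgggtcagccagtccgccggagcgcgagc
Usp24: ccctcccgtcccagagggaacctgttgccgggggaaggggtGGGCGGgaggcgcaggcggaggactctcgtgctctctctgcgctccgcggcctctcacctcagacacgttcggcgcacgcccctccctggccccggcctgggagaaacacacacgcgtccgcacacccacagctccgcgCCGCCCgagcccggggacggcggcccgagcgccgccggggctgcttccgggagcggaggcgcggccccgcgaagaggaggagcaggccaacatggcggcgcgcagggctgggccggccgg
The Usp2 window holds 3 GC-boxes and 1 TGACG, and the Usp24 window holds 2 GC-boxes and no TGACG. A GC-box on either strand stood in 75% of the 36 windows of tested members (Usp6nl has 2 windows), against 35.7% of all 32851 windows. TGACG stood in 38.9% of the USP windows and in 20.8% of all windows. The full glucocorticoid response element (AGAACA and TGTTCT, 3 bases apart) was in none of the 36 USP windows and in 0.00913% of all windows. The hexamer AGAACA, one arm of that element, on either strand was in 3 USP windows (Usp13, Usp19 and Usp45), or 8.33%, against 19% of all. The E-box CACGTG, a site of clock factors, was in 13.9% of the USP windows and 7.15% of all, and in neither window printed here. The D-box TTANGTAA was in none of the USP windows and in 2.32% of all. The USP windows had a median of 30.5 CpG, against 7 over all windows. The USP windows are those of tested members, while all windows include genes not tested here, so these sets are unlike in more than family. These are matches of letters in short windows, and they say nothing of binding.

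The other 2 members that rose were Usp34 and Usp9x, which encode very large proteases known to stabilise axin and, for Usp9x, many substrates at endosomes and cell junctions. Usp34 (ENSMUSG00000056342, chromosome 11) was at 79.9, 88.3, 86.0 and 87.5 CPM in E to H, against 66.9, 73.9, 69.0 and 70.9 CPM in A to D. The lowest library labelled knockout, E, was above the highest control, B. The log2 change was 0.28 ± 0.06 (SE), or 1.22-fold, with an edgeR adjusted p = 0.0195. The Usp34 call ended without E and G (log2 fold change 0.33, adjusted p = 0.0772) and when A, C, F, G or H alone was left out (0.26 to 0.28, highest adjusted p = 0.067). Removing each library's trend on GC content brought it to a log2 fold change of 0.11 (adjusted p = 0.25), and removing the trend on transcript length to 0.20 (adjusted p = 0.0532).

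Usp9x (ENSMUSG00000031010, chromosome X) was at 164, 185, 200 and 224 CPM in E to H, against 122, 164, 132 and 149 CPM in A to D. Library E barely exceeded control library B, so the gap between the groups was far smaller than the spread within either. The means were 193 ± 25.5 CPM in libraries labelled knockout and 142 ± 18.5 CPM in control (SD, n = 4 each), which is 1.37-fold on a log2 change of 0.45 ± 0.11 (SE), with an edgeR adjusted p = 0.0349. Its call ended without A, C, D, F, G or H alone (0.37 to 0.47, highest adjusted p = 0.103) and without E and G (0.53, adjusted p = 0.0776). With the GC trend removed its log2 fold change was 0.24 (adjusted p = 0.0825). Usp9y, its Y-linked copy, was listed at 0 in all 8 libraries.

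Usp54 fell. With Usp53 and Usp39 it belongs to the members described as lacking part of the catalytic machinery of the family. Usp54 (ENSMUSG00000034235, chromosome 14) was at 6.43, 8.01, 7.45 and 7.89 CPM in E to H, against 9.54, 10.0, 9.94 and 11.6 CPM in A to D. Every library labelled knockout was below every control. The log2 fold change was -0.46 ± 0.10 (SE), or 1.38-fold lower, with an edgeR adjusted p = 0.0191. Its call ended with library size alone (-0.39, adjusted p = 0.0507), without G (-0.46, adjusted p = 0.0639) and without E and G (-0.37, adjusted p = 0.136). The antisense gene 1810062O18Rik overlaps Usp54, at a mean of 0.210 CPM in libraries labelled knockout and 0.336 CPM in control. Usp53, the closest relative of Usp54 and a protein of tight junctions, averaged 16.4 ± 1.43 CPM in libraries labelled knockout and 13.6 ± 1.70 CPM in control, a log2 fold change of 0.27 that did not pass (edgeR adjusted p = 0.119) but did with library size alone. The difference between the 2 relatives was not tested. Usp39, a splicing factor of this class, averaged 22.8 CPM in libraries labelled knockout and 23.9 CPM in control (edgeR adjusted p = 0.534).

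**Figure D3:**
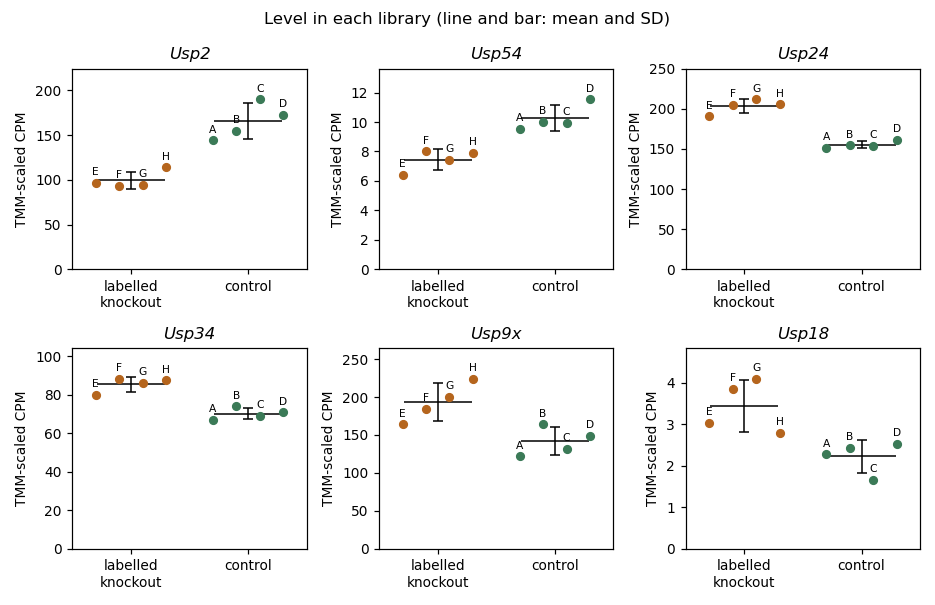
Level in each library, as TMM-scaled CPM, for the 5 called members and Usp18, with libraries labelled knockout on the left and control libraries on the right of each panel; the line and bar are the mean and SD of 4 libraries. Usp2 and Usp54 are lower in all 4 libraries labelled knockout, Usp24, Usp34 and Usp9x are higher, and in the Usp9x panel library E meets the highest control.

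Usp18 and Usp25 are known from interferon and inflammatory signalling. Usp18, which removes the ubiquitin-like modifier ISG15 and dampens the interferon receptor, was at 3.03, 3.85, 4.10 and 2.79 CPM in E to H, against 2.27, 2.43, 1.66 and 2.53 CPM in A to D. The groups did not overlap, but the log2 fold change of 0.63 ± 0.18 (SE) did not pass (edgeR adjusted p = 0.0534). It passed with no filter, a stricter filter, the length trend removed, the DESeq2 Wald test and limma-voom (adjusted p-values of 0.0159 to 0.04997). Under the other alternatives Usp18 did not pass. Its edgeR adjusted p was 0.0573 with the GC trend removed, 0.2 without E and G and 0.0517 to 0.157 with any single library left out. Usp25, which has a muscle-specific splice form, averaged 155 ± 10.9 CPM in libraries labelled knockout and 137 ± 12.0 CPM in control (edgeR adjusted p = 0.19), and its groups overlapped.

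The member bound to the proteasome, the member that takes apart free ubiquitin chains (Usp5) and its relative Usp13 did not pass. Usp14, which trims chains on substrates at the proteasome, was at 44.5, 54.7, 51.0 and 57.6 CPM in E to H, against 38.0, 47.6, 45.2 and 52.1 CPM in A to D. These ranges overlapped widely (log2 fold change 0.18 ± 0.10, SE, edgeR adjusted p = 0.282), and the sign turned with the GC trend removed (-0.05). Usp5, or isopeptidase T, averaged 63.5 ± 2.40 CPM in libraries labelled knockout and 68.9 ± 4.89 CPM in control (edgeR adjusted p = 0.281), and its sign also turned with the GC trend removed (0.01). Usp13 averaged 431 ± 22.8 CPM in libraries labelled knockout and 451 ± 33.7 CPM in control (edgeR adjusted p = 0.596), and its sign turned with library size alone (0.01).

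Usp19 was close to even between the groups. It was at 213, 209, 209 and 202 CPM in E to H, against 222, 190, 218 and 216 CPM in A to D. The libraries labelled knockout lay within the range of the controls, with a log2 fold change of -0.02 ± 0.07 (SE, edgeR adjusted p = 0.854). Its sign turned with library size alone (0.05), with the GC trend removed (0.12) and without A (0.00444). Usp30, which sits in the outer mitochondrial membrane and opposes Parkin, averaged 8.87 ± 0.96 CPM in libraries labelled knockout and 10.1 ± 0.20 CPM in control (edgeR adjusted p = 0.209).

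The 3 members activated by WD40-repeat proteins all had positive log2 fold changes between 0.24 and 0.26, and none passed. A group of 3 says little beside the 8.45% of all genes tested that were called. Usp1, which acts on Fancd2 and PCNA in DNA repair, was at 15.6, 17.4, 15.9 and 17.4 CPM in E to H, against 12.6, 14.1, 14.8 and 13.6 CPM in A to D. Its groups did not overlap (log2 fold change 0.26 ± 0.08, SE, edgeR adjusted p = 0.0558). With the GC trend removed the log2 fold change of Usp1 was 0.16 (edgeR adjusted p = 0.208), and without E and G 0.33 (edgeR adjusted p = 0.116). Usp12 averaged 25.2 ± 1.04 CPM in libraries labelled knockout and 21.4 ± 2.23 CPM in control (edgeR adjusted p = 0.0873), and passed only without D among the alternatives. Its close relative Usp46 averaged 13.7 ± 2.48 CPM in libraries labelled knockout and 11.5 ± 3.02 CPM in control (edgeR adjusted p = 0.4).

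None of the 7 tested members that act on histones H2A and H2B was called, with log2 fold changes from -0.08 to 0.20. With 8.45% of all genes tested called, none among 7 says little about this role. Usp22, the protease of the SAGA coactivator complex, averaged 19.4 ± 0.22 CPM in libraries labelled knockout and 17.99 ± 0.75 CPM in control. Its groups did not overlap, yet the log2 fold change was only 0.11 ± 0.06 (SE, edgeR adjusted p = 0.265). Usp16, which acts on H2A in mitosis, averaged 60.3 ± 2.72 CPM in libraries labelled knockout and 56.2 ± 1.503 CPM in control (edgeR adjusted p = 0.284).

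Apart from Usp2, the members linked to p53, Mdm2 and growth control did not pass, where 8.45% of all genes tested were called. Usp7, the protease of Mdm2 and p53, averaged 98.5 ± 6.83 CPM in libraries labelled knockout and 92.1 ± 1.46 CPM in control (edgeR adjusted p = 0.352). Usp28, which stabilises Myc, averaged 71.8 ± 3.34 CPM in libraries labelled knockout and 73.1 ± 2.91 CPM in control (edgeR adjusted p = 0.828). The sign of Usp28 turned with library size alone (0.05), without B (0.00520) and without E and G (0.02).

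The 8 members with DUSP or ubiquitin-like domains, among them Usp4, Usp15, Usp11, Usp20 and Usp33, had no called member. Their log2 fold changes ran from -0.29 to 0.27. Few calls are due among 8 genes where 8.45% of all genes tested were called. Usp20, which acts with Usp33 on membrane receptors, was at 13.4, 14.1, 13.2 and 13.3 CPM in E to H, against 17.0, 14.8, 15.4 and 18.6 CPM in A to D. It was lower in every library labelled knockout, but just missed the threshold (log2 fold change -0.29 ± 0.08, SE, edgeR adjusted p = 0.056). With the GC trend removed the log2 fold change of Usp20 was -0.16 (edgeR adjusted p = 0.27), and without E and G -0.27 (edgeR adjusted p = 0.242). Usp32, found at Golgi and endosomal membranes, averaged 22.3 ± 1.28 CPM in libraries labelled knockout and 18.9 ± 1.42 CPM in control, with no overlap (edgeR adjusted p = 0.0734). Its log2 fold change of 0.24 was 0.13 with the GC trend removed (edgeR adjusted p = 0.281) and 0.30 without E and G (edgeR adjusted p = 0.141). Usp4 averaged 115 ± 3.22 CPM in libraries labelled knockout and 110 ± 6.71 CPM in control (edgeR adjusted p = 0.58).

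Usp47, the member of highest level, was at 509, 515, 505 and 468 CPM in E to H, against 435, 406, 439 and 443 CPM in A to D. All libraries labelled knockout were higher, but the log2 change of 0.21 ± 0.06 (SE) missed the threshold (edgeR adjusted p = 0.0586). It passed with library size alone, a stricter filter, the DESeq2 Wald test and limma-voom (adjusted p-values of 0.00399 to 0.0498). Under the other alternatives Usp47 did not pass. With the GC trend removed its log2 fold change was 0.10 (edgeR adjusted p = 0.445), and without E and G 0.19 (edgeR adjusted p = 0.28). With any single library left out the highest edgeR adjusted p was 0.153. At the other end of the scale, Usp29, an imprinted gene, had 5, 7, 8 and 14 counts in E to H and 5, 37, 20 and 12 counts in A to D. Its log2 fold change of -1.27 ± 0.51 (SE) was the lowest of the family and did not pass (edgeR adjusted p = 0.138), and the high control values were those of B and C.

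The tested members not yet described had log2 fold changes of -0.25 to 0.28, and their groups overlapped without exception. Usp37, known from cell cycle control, had the largest positive value, with 12.7 ± 1.58 CPM in libraries labelled knockout and 10.5 ± 0.72 CPM in control (log2 fold change 0.28, edgeR adjusted p = 0.0994). Usp45 averaged 26.6 ± 4.06 CPM in libraries labelled knockout and 21.96 ± 1.75 CPM in control (0.28, edgeR adjusted p = 0.12). Usp36, a nucleolar protease, averaged 21.8 ± 1.27 CPM in libraries labelled knockout and 25.3 ± 4.67 CPM in control (-0.21, edgeR adjusted p = 0.28). Usp15, a paralog of Usp4, was the most abundant of these in CPM and nearly even, at 167 ± 11.6 CPM in libraries labelled knockout and 169 ± 7.72 CPM in control (edgeR adjusted p = 0.94). Usp8, an endosomal protease that acts on receptors such as EGFR, was likewise even at 27.4 ± 1.68 CPM in libraries labelled knockout and 27.6 ± 0.68 CPM in control (edgeR adjusted p = 0.921). Usp27x, Usp43 and Usp44 were under 1 CPM in both groups, where the SE of the log2 fold change reached 0.46.

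Fold changes in these libraries moved with the GC content of the transcript, and the USP genes moved in the same direction. Over all tested genes with under 45% GC the median log2 fold change was 0.17 and 10.2% were called higher, while over those of at least 50% GC the median was -0.11 and 0.901% were called higher. Among USP genes, the 14 with under 45% GC had a median of 0.25 and 12 were positive. The 16 between 45% and 50% had a median of 0.08, and the 17 of at least 50% had a median of -0.04 with 6 positive. Usp9x (40.0% GC) and Usp34 (41.5%) lie in the AT-rich class, and Usp24 (47.3%), Usp54 (49.6%) and Usp2 (53.5%) do not. The transcripts of tested members were long, with a median of 4745 bases against 3282 over all tested genes. All 3 members called higher were among the 14 of at least 6000 bases, as was Usp54, which was called lower. In that class 8.75% of all genes were called higher and 4.65% lower. With the GC trend removed, Usp24, Usp2 and Usp54 were the called members, at log2 fold changes of 0.36, -0.64 and -0.44.

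**Figure D4:**
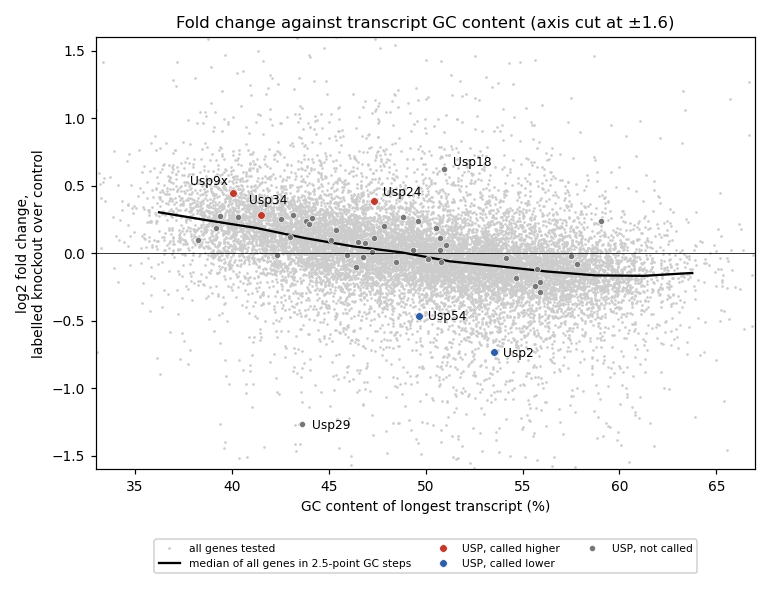
Log2 fold change, libraries labelled knockout over control, against the GC content of the longest transcript in percent, for all tested genes (pale points), their median in steps of 2.5 points (line) and the tested USP genes (large points). The line descends with GC content. Usp9x and Usp34 lie above its left part, Usp34 closer to it, and Usp2 lies below the line.

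**Figure D5:**
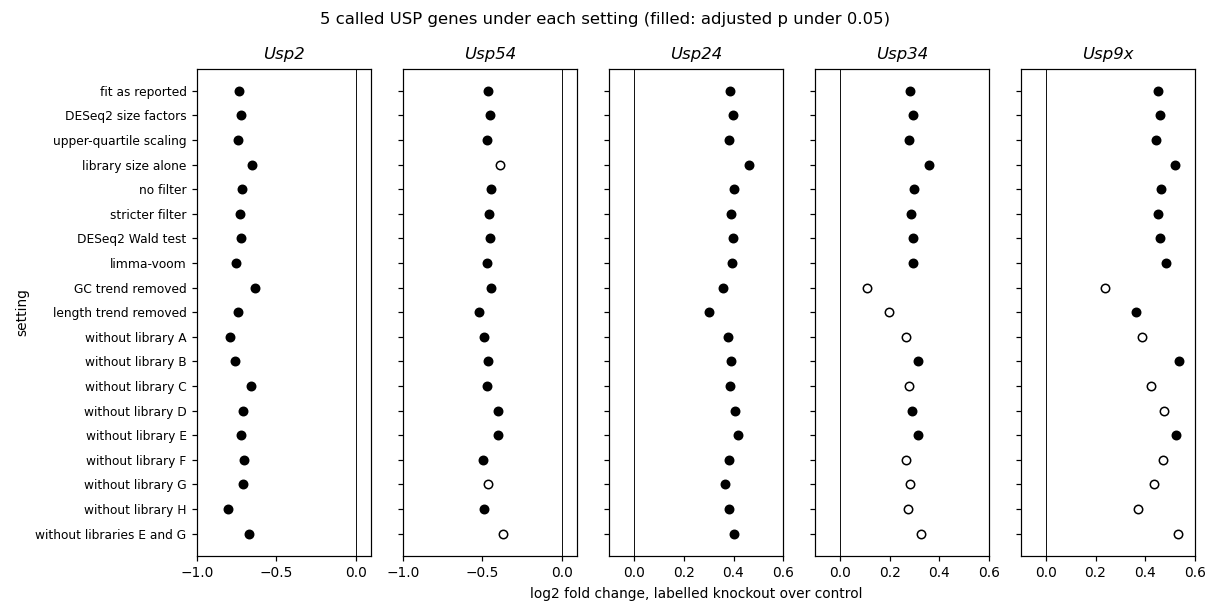
Log2 fold change of the 5 called members under the fit as reported and 18 alternatives, filled where the adjusted p was under 0.05. Usp2 and Usp24 are filled in all rows, while Usp34 and Usp9x are open with the GC trend removed and without most single libraries.

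Genes that act with the USPs were read from a list of partners, cofactors and substrates. Of its 60 tested members 2 rose and 5 fell, or 11.7% against the background of 8.45%, with a median log2 fold change of 0.03. Per1, a clock gene and glucocorticoid target whose protein Usp2 acts on, fell to 30.5 ± 0.95 CPM in libraries labelled knockout, against 74.1 ± 15.3 CPM in control (log2 fold change -1.28 ± 0.12, SE, edgeR adjusted p = 0.000594). Mdm2, the p53 ligase that is a substrate of Usp2 and Usp7, was at 42.4, 39.3, 43.8 and 35.8 CPM in E to H, against 56.4, 55.5, 56.5 and 56.7 CPM in A to D. The controls were nearly equal, and every library labelled knockout was lower (log2 fold change -0.48 ± 0.07, SE, edgeR adjusted p = 0.00374).

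The other 5 called genes of that list were Supt7l, Taf6l and Hgs, which fell, and Kat2b and Atxn7, which rose. Supt7l fell to 7.80 ± 0.76 CPM in libraries labelled knockout, against 11.02 ± 0.37 CPM in control (edgeR adjusted p = 0.00982), and Taf6l to 5.27 ± 0.29 CPM in libraries labelled knockout, against 6.63 ± 0.25 CPM in control (edgeR adjusted p = 0.0429). The acetyltransferase gene Kat2b rose to 109 ± 3.34 CPM in libraries labelled knockout, against 91.5 ± 4.09 CPM in control (edgeR adjusted p = 0.0241). Atxn7, which anchors the deubiquitinase module holding Usp22, rose to 35.7 ± 3.26 CPM in libraries labelled knockout, against 28.1 ± 2.36 CPM in control (edgeR adjusted p = 0.0331). Hgs, the endosomal sorting partner of Stam and Usp8, fell to 17.4 ± 0.79 CPM in libraries labelled knockout, against 21.9 ± 1.87 CPM in control (edgeR adjusted p = 0.0266). The calls of Kat2b, Atxn7 and Hgs ended without E and G (adjusted p = 0.109, 0.0594 and 0.129), and each ended without most single libraries. Kat2b lost its call without A, C, D, F, G or H (highest adjusted p = 0.0731). Atxn7 lost it without C, D, F, G or H (highest adjusted p = 0.0872), with the GC trend removed (0.0691) and with the length trend removed (0.0643). Hgs lost it without A, C, D, F, G or H (highest adjusted p = 0.0942), with the GC trend removed (0.129) and with library size alone (0.0682). Taf6l lost its call with any one of the 8 libraries left out, with library size alone, with no filter and with the GC or length trend removed. The calls of Per1, Mdm2 and Supt7l held under all alternatives.

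A list of genes of deubiquitinase families with other names than Usp was also read, and not all of them act on ubiquitin. Of its 41 tested members 1 rose and 1 fell, or 4.88% against 8.45%, with a median log2 fold change of 0.04. Cyld, which removes linear and K63-linked chains in NF-kappaB signalling, was at 40.9, 46.0, 42.2 and 44.8 CPM in E to H, against 33.7, 28.5, 35.5 and 34.96 CPM in A to D. Its groups did not overlap (log2 fold change 0.39 ± 0.08, SE, edgeR adjusted p = 0.0156), and its call ended with the GC trend removed (0.26, adjusted p = 0.106) and without E and G (0.45, adjusted p = 0.0626). Otud1, an OTU-family protease, fell to 8.59 ± 1.601 CPM in libraries labelled knockout, against 16.2 ± 4.60 CPM in control (log2 fold change -0.91 ± 0.22, SE, edgeR adjusted p = 0.0368). Control library D, at 10.1 CPM, lay within the range of the libraries labelled knockout, and leaving out any library but D ended the call (highest adjusted p = 0.1). The Otud1 call also ended without E and G (adjusted p = 0.173), with no filter (0.11) and with the GC trend removed (0.0823).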

How the data were processed

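Raw read counts per Ensembl gene were deposited by the authors for 48709 genes, with no normalisation. Per the labels' protocols, poly(A) RNA was made into stranded dUTP libraries. Per the submitters' processing notes and the design text, base calls were converted with bcl2fastq 2.17.1.14, reads were aligned to mm10 with TopHat version 2 and counted with HOMER. The annotation release and the strand setting were not given in the sources used here. Columns were assigned to groups by name and carry no replicate number of the labels. The most alike pair of libraries within a group had a chi-square over its degrees of freedom of 13.12, well above sampling noise.

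Genes were kept with filterByExpr (count of about 10, total of 15), scaled by TMM and tested with edgeR 4.0.16 (robust quasi-likelihood, R 4.3.3), without covariates. Benjamini-Hochberg adjustment ran over 14712 genes, with a threshold of 0.05. Each SE was obtained from the log2 fold change and the F statistic. The script was tested on simulated data, with 50 genes set to each log2 change. It recovered 80% of those at -1, 34% at -0.5, 50% at 0.5 and 88% at 1. Changes of 0.5 were thus often missed. Lengths and GC content are those of the longest GENCODE M21 transcript, with 25 tested genes lacking one. Start windows are from RefSeq GRCm38.p6. Older symbols were matched by gene identifier. The result of 1 marker list is not reported here.

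The named genes were Nr3c1, every called member, the 8 highest per kilobase, the 5 of smallest p not called, 9 members with a known part in muscle, glucocorticoid or clock response or at the proteasome, and up to 6 called genes of each other list. Taf6l, Usp8, Usp10, Usp12, Usp15, Usp16, Usp29, Usp30, Usp35, Usp36, Usp37, Usp39, Usp45, Usp46 and Usp53 fall outside this rule and were chosen after their values were seen. Members, roles and lists were chosen with earlier results of these data known. Alternatives were library size alone, upper-quartile scaling, DESeq2 size factors, a filter requiring 1 CPM in 4 libraries, none at all, the DESeq2 1.42.0 Wald test, limma-voom (limma 3.58.1), removal of each library's trend on GC content or length (lowess, span 0.3), each library left out, and, chosen after seeing the data, E and G left out.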

Additional observations from a re-analysis of the deposited data

Results flagged for a closer look

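In 94 groups of 4 libraries (47 tested members in each group), 4 held a library that stood apart from the other 3 by more of the group's range than Dixon's critical value allows, and chance flags about 1 in 20 groups. Usp2 was at 113.9 CPM in library H, against 93.4 to 96.6 CPM in the other libraries labelled knockout. Usp10, which acts with G3bp1 in stress granules, was at 42.3 CPM in library G, against 46.2 to 46.5 CPM in E, F and H. Usp53 was at 14.3 CPM in library E, against 16.9 to 17.2 CPM in F, G and H. Usp35 was at 1.95 CPM in library F, against 2.5004 to 2.59 CPM in E, G and H. All 4 were in libraries labelled knockout, each in a different library.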

How the results depend on the processing

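Usp2 and Usp24 kept their direction and their call under all 18 alternatives. Over all genes, 2026 were called by the DESeq2 Wald test, 1871 by limma-voom, 685 with the GC trend removed, 226 without E and G and 373 to 1794 with 1 library left out, against 1243. USP genes called higher, 3 as reported, numbered 7 with library size alone or the DESeq2 Wald test, 6 with the stricter filter or limma-voom, 1 with the GC trend removed, 1 without E and G and 1 to 3 with 1 library left out (1 without A, C, F, G or H, and 3 without D, where Usp12 was called and Usp9x was not). USP genes called lower, 2 as reported, numbered 1 with library size alone, 1 without E and G and 1 to 4 with 1 library left out (1 without G, and 4 without B, where Usp20 and Usp36 were added). Called genes of the list of other deubiquitinase families, 2 as reported, numbered 4 with library size alone or the DESeq2 Wald test. They numbered 0 with the GC trend removed by edgeR (6 at an unadjusted p under 0.05) and 1 to 2 with 1 library left out. Partner genes, 7 as reported, numbered 3 to 7 with 1 library left out (3 without C, F, G or H, 4 without D). The calls in the partner list and in the list of other deubiquitinase families were not counted without E and G. Among named members that were not called, signs turned with library size alone for Usp13 (0.00817), Usp19 (0.0529) and Usp28 (0.0484), with the GC trend removed for Usp5 (0.00860), Usp14 (-0.0474) and Usp19 (0.122), and without E and G for Usp28 (0.0181). With 1 library left out, Usp19 ranged from -0.0638 to 0.00444 (positive without A) and Usp28 from -0.0560 to 0.00520 (positive without B). Of the 14 named members not called, 5 passed under some alternative: Usp1, Usp18, Usp20, Usp32 and Usp47. Of the other members, Usp12 passed without D, Usp53 with library size alone and Usp36 without B. Apart from the smaller number of libraries where some were left out, the cause of these shifts was not tested. Depth limits Usp29, Usp43, Usp44 and Usp27x, all under 1 CPM. No paired analysis was possible because the columns carry none of the replicate numbers in the labels.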
